A study of Rattus norvegicus with 3 samples.

Results

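Denervated soleus was set against normal plantaris, 1 array against 1, out of 3 arrays in the series, to see how far a slow muscle that has lost its nerve lies from a fast one. The arrays were chosen by their source names alone. Both muscles came from male rats, labelled as 12 weeks old and of a Wistar Honnover background. In the denervated group about 5 mm of the left sciatic nerve was removed at gluteal level and the soleus was taken 28 days later. The plantaris came from control rats that received no treatment, so no sham operation stands behind it. The third array, of normal soleus, is used only to place the other 2. Each array stands for 1 group, and neither the number of animals behind it nor any pooling is given in the sources used here.

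The soleus is a postural calf muscle built mainly of slow, oxidative fibres, and the plantaris beside it is built mainly of fast fibres. A motor nerve imposes fibre type through its firing pattern and keeps acetylcholine receptors confined to the junction. When the nerve is cut, fibres waste, receptor genes become active along the whole fibre, and slow fibres are known to take on some fast fibre proteins.

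Each level below is a log2 signal relative to the 75th percentile of its own array, so 0 marks that percentile and 1 unit is 2-fold. Levels of different genes are not compared, since each probe binds with its own strength. Folds are log2 differences, denervated soleus minus plantaris, and the ± beside them is the scanner software's signal error, which covers measurement only. Genes had to stand well above background in 1 muscle or both, and a gene that did so in 1 only gives a bound, written with "at least". Without replicates no p-value or spread between animals can be given, and 2-fold is a rule of size. The denervated array lay on slide 2 and the plantaris and normal soleus arrays on slide 1, scanned separately, so slide and denervation cannot be told apart in anything that follows. In whole muscle, fewer cells of a type and less RNA per cell cannot be told apart either. Of the probes on the arrays 67.0% were well above background in denervated soleus, 65.3% in plantaris and 64.2% in normal soleus.

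The denervated soleus was not a copy of the plantaris. Among 11313 genes compared, 1363 were at least 2-fold higher in denervated soleus (12.0%) and 1899 at least 2-fold lower (16.8%), with a median log2 fold of 0.01 over all of them. Of those, 95 were at least 3 log2 units higher and 140 at least 3 lower. Each list count below is to be read beside the 12.0% and 16.8% of all genes. The split between higher and lower depended on scaling. In the authors' deposited values, which shift the median of all genes to 0.36, the counts were 2456 higher and 1213 lower, and with normexp background correction they were 504 and 1310.

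Over the 9855 genes well above background on all 3 arrays, the median absolute log2 difference between denervated soleus and plantaris was 0.56, and 25.3% of the genes were at least 2-fold apart. Between denervated and normal soleus it was 0.43 (18.1%), and between the normal muscles 0.28 (8.51%). By this measure the denervated muscle lay farther from the plantaris than the normal soleus did. The last pair shared a slide and the other pairs did not, and the part of the slide in this order was not tested.

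**Figure D1:**
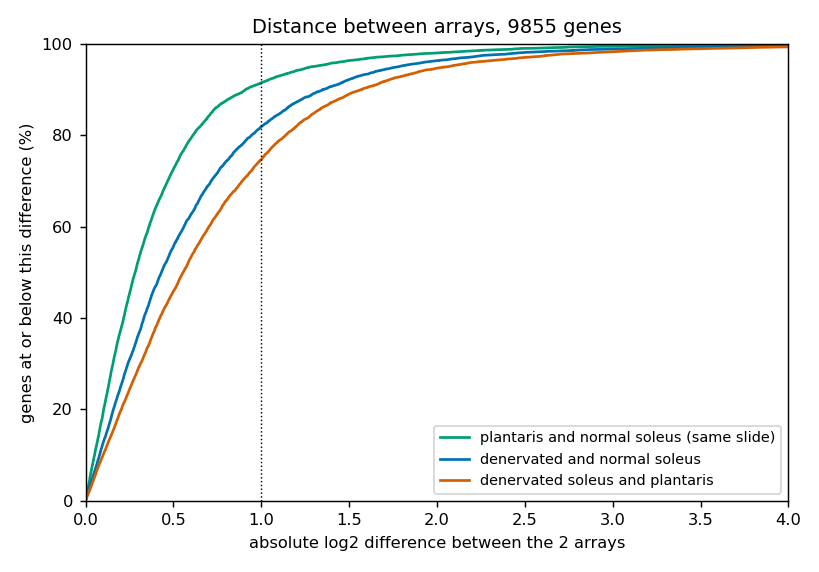
Share of 9855 genes (vertical axis, percent) whose absolute log2 difference between 2 arrays is at or below the value on the horizontal axis, 1 line for each pair of arrays. The line for denervated soleus and plantaris lies lowest at the dotted 2-fold mark, where 25.3% of genes are farther apart, against 18.1% for denervated and normal soleus and 8.51% for the normal muscles.

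**Figure D2:**
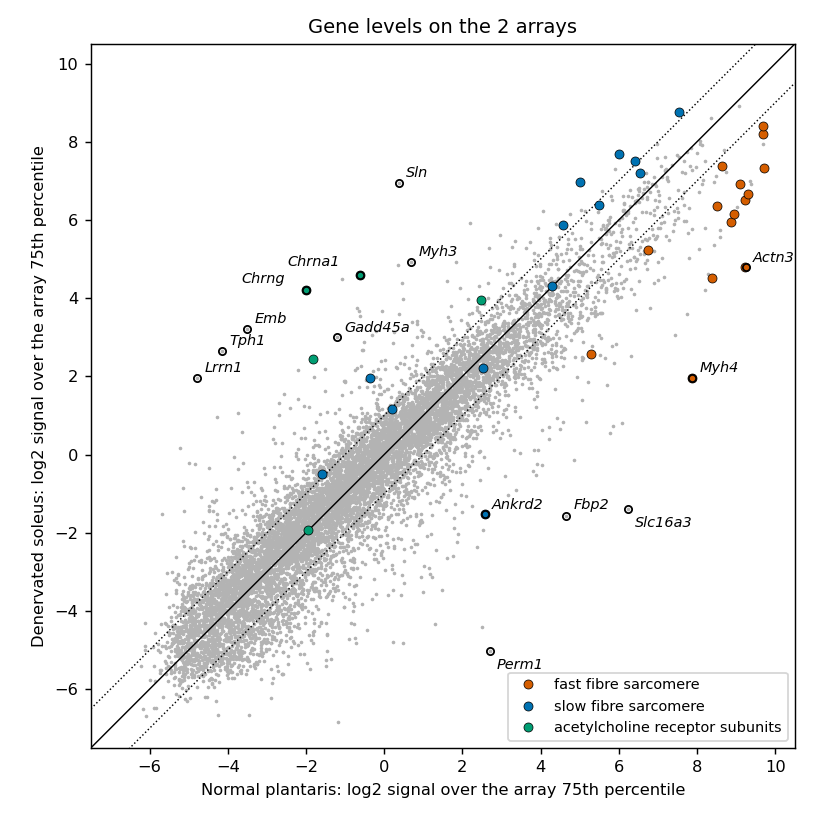
Level of each gene measured on both arrays in normal plantaris (horizontal) and denervated soleus (vertical), as log2 signal over the 75th percentile of the array. The solid line marks equal levels and the dotted lines 2-fold, and coloured points are gene lists. Fast fibre genes lie below the lines and most acetylcholine receptor subunits far above them.

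Fast fibre genes gave the most uniform difference among the sarcomere lists. All 15 compared members were lower by 2-fold or more in denervated soleus than in plantaris, against 16.8% of all genes, with a median of -2.64. Under quantile normalization 11 of them were. Denervated soleus still held far more of some of these transcripts than normal soleus did, so the list combined very different starting points. Pvalb, the calcium buffer parvalbumin of fast fibres, stood at 6.91 in denervated soleus, 9.09 in plantaris and 0.89 in normal soleus, a fold of -2.18 ± 0.20 against plantaris. Actn3, the alpha-actinin of fast Z-discs, stood at 4.80, 9.24 and -0.35 in the same order (-4.44 ± 0.20). Under quantile normalization these folds were -1.04 and -3.55. For both genes the denervated level lay well above that of normal soleus and below that of plantaris.

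The myosin heavy chains, the motor proteins that set contraction speed, followed an order. Myh4, the IIb chain of the fastest fibres, stood at 1.96 in denervated soleus against 7.88 in plantaris and 0.66 in normal soleus. Its fold was -5.92 ± 0.20, or 60.5-fold lower, and -5.27 under quantile normalization. Myh1, the IIx chain, stood at 5.94 against 8.87 and 1.5 (-2.94 ± 0.20, or -1.90 under quantile normalization). Myh2, the IIa chain, stood at 5.24 against 6.74 and 5.76 (-1.5 ± 0.20, or -0.80 under quantile normalization, and -1.14 on its other probe). The gap to plantaris was therefore widest for the IIb chain and narrowest for the IIa chain. Myosin genes are near-identical in places, so signal from a relative on any of these probes was not tested.

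Among other fast fibre members, Myoz1, a Z-disc protein that binds calcineurin, stood at 4.52 in denervated soleus, 8.38 in plantaris and 4.72 in normal soleus (-3.87 ± 0.20). Tnni2, the fast troponin I, stood at 7.34, 9.72 and 7.47 (-2.38 ± 0.20). Under quantile normalization these folds were -3.0 and -1.47. Both lay close to normal soleus, unlike Pvalb, Actn3 and Myh1. The list median was 2.47 for plantaris over normal soleus and 0.41 for denervated over normal soleus. These medians share arrays with the main comparison and are given side by side only.

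More slow fibre genes lay above plantaris than below it. Of 13 compared members 7 were at least 2-fold higher, against 12.0% of all genes, and 1 was lower (median 1.09). Across the alternatives 6 to 10 were higher. Myh7 encodes the slow myosin heavy chain and stood at 7.52 in denervated soleus, 6.41 in plantaris and 9.03 in normal soleus, so its fold over plantaris was 1.12 ± 0.20. Tnni1, the slow troponin I, stood at 6.98, 5.00 and 8.18 (1.98 ± 0.20), and Tnnc1, the slow and cardiac troponin C, at 7.69, 6.01 and 8.75 (1.68 ± 0.20). Quantile normalization gave 2.11 for Myh7, 2.79 for Tnni1 and 2.64 for Tnnc1. Each of these genes sat below normal soleus and above plantaris. The list median was -2.64 for plantaris over normal soleus and -1.5 for denervated over normal soleus.

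Pln, Ankrd2, Casq2 and Csrp3 did not follow that pattern. Pln encodes phospholamban, an inhibitor of the slow calcium pump. It stood at 1.97 in denervated soleus, -0.37 in plantaris and 0.86 in normal soleus (2.34 ± 0.20), highest in the denervated muscle. Ankrd2, a titin-linked stretch sensor, stood at -1.53, 2.57 and 6.84, below plantaris by -4.10 ± 0.21. Ankrd2 was the only member of the slow list at least 2-fold lower than in plantaris. Casq2 (2.22, 2.52 and 5.19, -0.30 ± 0.20) and Csrp3 (4.31, 4.30 and 5.80, 0.01 ± 0.20) lay below normal soleus but near plantaris. Both were named after their values were seen.

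**Figure D3:**
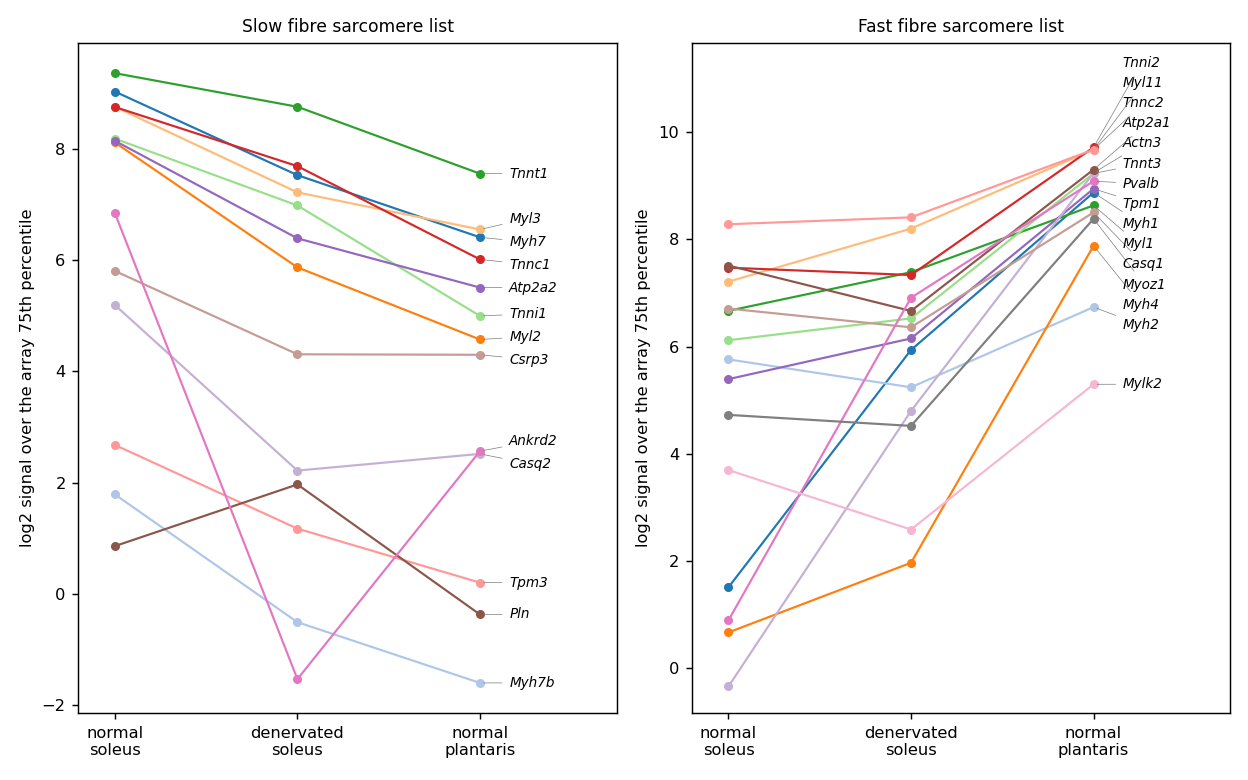
Levels (log2 signal over the 75th percentile of each array) of the compared slow fibre list members, left, and fast fibre list members, right, in normal soleus, denervated soleus and normal plantaris, with 1 line for each gene. Pvalb, Actn3 and Myh1 lie in denervated soleus well above normal soleus, whereas Myh4 lies 1.30 above normal soleus and far below plantaris, and Ankrd2 is lowest in denervated soleus.

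Developmental and cardiac sarcomere genes were mostly higher in denervated soleus. Of 9 compared, 5 were at least 2-fold higher and 1 lower (median 1.24). The median is the value of Tnni3, cardiac troponin I, a faint bound of at least 1.24 ± 0.46 that was named after its value was seen. With normexp background 4 of 8 were higher (median 1.82), and across the alternatives 4 to 7 were. Myh3, the embryonic myosin, stood at 4.93 in denervated soleus, 0.69 in plantaris and 3.43 in normal soleus, a fold of 4.24 ± 0.20, and its other probe gave 4.45. Tnnt2, cardiac troponin T, stood at 3.66, -0.06 and 1.86 (3.72 ± 0.20). Ankrd1, a stress-induced partner of titin related to Ankrd2, stood at 3.15, -0.21 and -1.21 (3.37 ± 0.20). These genes were highest in the denervated muscle of the 3 arrays. Actc1, cardiac actin, stood at 5.29, 2.67 and 5.42 (2.62 ± 0.20) and thus near normal soleus. Myh8, the perinatal myosin, went the other way with 7.95, 9.69 and 8.46 (-1.73 ± 0.20, or -0.68 under quantile normalization). Signal from near-identical relatives, such as the fast myosins, was not tested for the Myh8 and Myh3 probes either.

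The acetylcholine receptor held some of the widest gaps. The receptor is a pentamer of 2 alpha subunits with beta, delta and either the fetal gamma or the adult epsilon subunit. Chrng, the gamma subunit, stood at 4.21 in denervated soleus, -2.0 in plantaris and -0.51 in normal soleus, a fold of 6.2 ± 0.21 or 73.7-fold. Chrna1, the alpha subunit, stood at 4.60, -0.62 and 0.97 (5.22 ± 0.20), and Chrnd, the delta subunit, at 2.45, -1.82 and 1.34 (4.27 ± 0.21). Chrnb1, the beta subunit, had a smaller gap at 3.96, 2.47 and 2.08 (1.49 ± 0.20). Chrne, the epsilon subunit, stood at -1.94 on both arrays of the comparison and at -1.70 in normal soleus, so its fold was 0.00 ± 0.21. Thus 4 of 5 subunits were at least 2-fold higher, with the adult subunit as the exception, and the same count held under every alternative. Plantaris held less signal than normal soleus for the alpha, gamma and delta subunits, so each fold over plantaris exceeded the fold over normal soleus, which was 3.62, 4.72 and 1.1.

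The promoters of these subunit genes are shown because the subunits stood so far apart in fold, and because myogenic factors are known to act on receptor genes through E-boxes, short motifs spelled CANNTG that read as CANNTG on both strands. Each sequence is the 250 bases before the gene start used by the GRCr8 promoter windows. It runs 5′ to 3′ on the strand of the gene, with every CANNTG in capitals. Over these windows, 57.8% had a start equal to the outer end of the annotated RefSeq gene. Whether those shown are among them is not given here, and the motif positions rest on the start used. Chrna1 lies on the minus strand with its window at chr3:78877354-78877603. Chrng (chr9:95325734-95325983) and Chrnd (chr9:95310066-95310315) are neighbours on the plus strand. Chrne (chr10:55834155-55834404) is on the minus strand.
Chrna1: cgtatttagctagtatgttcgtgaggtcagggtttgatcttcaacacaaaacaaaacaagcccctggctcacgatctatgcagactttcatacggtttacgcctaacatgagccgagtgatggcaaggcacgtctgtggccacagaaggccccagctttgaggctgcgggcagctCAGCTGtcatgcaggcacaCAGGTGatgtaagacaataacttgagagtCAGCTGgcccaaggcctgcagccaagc
Chrng: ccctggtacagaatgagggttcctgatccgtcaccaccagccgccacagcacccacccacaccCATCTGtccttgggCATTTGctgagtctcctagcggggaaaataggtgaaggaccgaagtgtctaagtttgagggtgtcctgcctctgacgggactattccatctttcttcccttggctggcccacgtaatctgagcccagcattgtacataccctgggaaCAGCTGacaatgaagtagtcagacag
Chrnd: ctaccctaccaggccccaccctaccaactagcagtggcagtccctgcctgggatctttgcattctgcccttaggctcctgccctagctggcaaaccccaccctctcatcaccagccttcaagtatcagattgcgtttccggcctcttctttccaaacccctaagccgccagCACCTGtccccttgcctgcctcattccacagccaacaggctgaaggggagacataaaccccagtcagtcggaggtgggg
Chrne: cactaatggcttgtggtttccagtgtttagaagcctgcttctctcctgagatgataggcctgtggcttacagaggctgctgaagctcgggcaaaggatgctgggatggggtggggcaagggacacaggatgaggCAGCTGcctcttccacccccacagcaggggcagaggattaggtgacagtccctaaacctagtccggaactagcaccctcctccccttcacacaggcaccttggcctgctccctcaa

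The Chrna1 window held 3 such motifs, with their first bases at -75, -56 and -27 relative to the gene start. Chrng held 3, at -187, -173 and -26. Chrnd held 1 at -79 and Chrne 1 at -116. The Chrnb1 window, not shown, held 3. Of 27457 promoter windows of this length, 65.2% held at least 1 and 11% at least 3, so a single motif is common. A match is a run of letters, and nothing about binding was measured here.

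Other junction genes were split. Of 12 compared junction organisers 5 were at least 2-fold higher in denervated soleus and 1 lower (median 0.85), and across the alternatives 2 to 8 were higher. Erbb2, a neuregulin receptor, stood at 0.59 in denervated soleus, -3.64 in plantaris and -2.79 in normal soleus (4.22 ± 0.23, and 4.28 on another probe). Lrp4, the receptor for agrin, stood at -1.91, -4.00 and -3.91 (2.09 ± 0.23). With normexp background these receptors were at 3.22 and 1.27. Colq, the collagen tail that anchors acetylcholinesterase, stood at -2.64, -4.53 and -0.52 (1.88 ± 0.27, or 0.88 with normexp background), whereas the enzyme Ache itself stood at -1.94, 0.03 and -1.46 (-1.96 ± 0.21). The enzyme and its anchor therefore lay on opposite sides of plantaris.

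Of 13 compared myogenic and activity-dependent factors 4 were at least 2-fold higher, against 12.0% of all genes (median 0.36). Another 2 were lower, a share near the 16.8% of all genes. Across the alternatives 4 were higher and 1 to 2 lower. Runx1, a transcription factor known to rise without nerve input, stood at 3.55 in denervated soleus, -0.61 in plantaris and 0.31 in normal soleus (4.16 ± 0.20). Myog, myogenin, stood at 3.98, 0.49 and 2.12 (3.49 ± 0.20, from 1 spot). Myod1 stood at 4.25, 1.93 and -0.10 (2.32 ± 0.20). Among the normal muscles Myod1 was higher in the fast one and Myog in the slow one, and the denervated soleus held more of both than either. Id2, an inhibitor of such factors, stood at 0.29, -2.62 and -1.97 (2.91 ± 0.21). On the low side were the activity-dependent factor Mef2d (-1.06 ± 0.20, or -0.97 under quantile normalization) and the deacetylase Hdac9 (at least -1.86 ± 1.30, or -0.84 with normexp background).

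No regulator of fibre type was at least 2-fold above plantaris. Of 12 compared, 6 were at least 2-fold lower (median -1.25). Sox6, a repressor of slow fibre genes, stood at -3.69 in denervated soleus, -1.87 in plantaris and -4.76 in normal soleus (-1.82 ± 0.22). Maf, a factor linked to the IIb myosin, stood at -2.19, -0.52 and -2.95 (-1.67 ± 0.21). Both lay between the normal muscles. Vgll2 was at -2.32, -0.44 and 0.76 (-1.89 ± 0.21), lowest in the denervated muscle. Prox1 was lower by a bound of at least -3.22 ± 1.11 (-1.92 with normexp background), but its 2 spots differed so much between the arrays that their folds had an SD of 4.77.

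**Figure D4:**
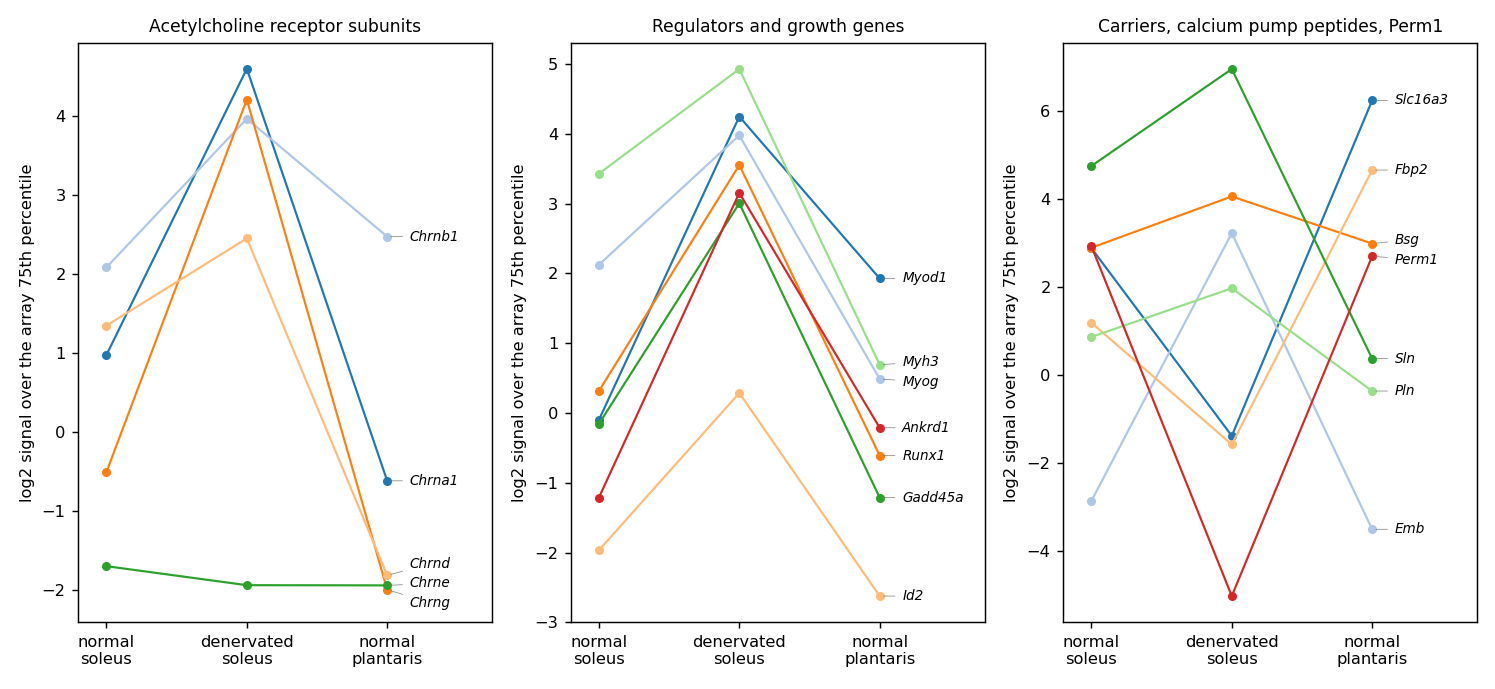
Levels (log2 signal over the 75th percentile of each array) in normal soleus, denervated soleus and normal plantaris, with 1 line for each gene. Receptor subunits other than Chrne, and the regulators and growth genes in the middle panel, peak in denervated soleus, while Slc16a3, Fbp2 and Perm1 are lowest there.

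Excitation and calcium handling held wide gaps on both sides. Sln encodes sarcolipin, a small peptide that inhibits the calcium pump. It stood at 6.95 against 0.37 in plantaris and 4.74 in normal soleus (6.58 ± 0.20, or 95.8-fold), so both pump inhibitors, Sln and Pln, were highest in the denervated muscle.

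More of that list lay below plantaris than above it. Of 19 compared, 8 were at least 2-fold lower and 4 higher (median -0.96). Jph2, which ties the calcium store to the surface membrane, stood at -2.17 in denervated soleus, 0.23 in plantaris and -0.80 in normal soleus (-2.40 ± 0.21). Clcn1, the chloride channel that stabilises resting fibres, stood at -3.87, -1.73 and -3.31 (-2.13 ± 0.22, and -1.87 on another probe). Higher members besides Sln included the potassium channel Kcnn3 (1.15 ± 0.20), a channel known from denervated muscle, and Stac3 (1.09 ± 0.20), which assists the calcium channel.

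Glycolysis had the lowest median of all the lists. Of 26 compared genes of glycolysis and glycogen 22 were at least 2-fold lower in denervated soleus and none higher (median -2.74), and 21 or 22 were lower under each alternative. Fbp2, the muscle fructose bisphosphatase, stood at -1.58 in denervated soleus, 4.65 in plantaris and 1.18 in normal soleus (-6.24 ± 0.20, or 75.4-fold lower). Gpd1, which links glycolysis to lipid synthesis, stood at 0.84, 5.17 and 1.75 (-4.33 ± 0.20). Aldoa, the muscle aldolase, stood at 4.21, 8.19 and 5.63 (-3.99 ± 0.20, or -3.17 under quantile normalization), and Phka1, a subunit of phosphorylase kinase, at -4.73, -0.90 and -3.55 (-3.83 ± 0.27, or -2.68 with normexp background). All of these were lower in denervated than in normal soleus too. Gapdh, often taken as a reference gene, was at 5.56, 8.58 and 7.13, with -3.02 ± 0.20, -3.05 and -3.06 on its 3 probes and -2.03 under quantile normalization. The list median was 1.93 for plantaris over normal soleus and -0.90 for denervated over normal soleus.

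A lactate carrier and a helper protein of this carrier family lay at opposite extremes. Slc16a3, the monocarboxylate carrier that exports lactate from fast fibres, stood at -1.39 in denervated soleus, 6.23 in plantaris and 2.88 in normal soleus (-7.62 ± 0.20, or 197-fold lower). Emb, embigin, which helps carriers of this family reach the membrane, stood at 3.22, -3.51 and -2.87 (6.73 ± 0.22, or 106-fold higher, and 5.65 with normexp background). Bsg, basigin, the usual partner of Slc16a3, stood at 4.05, 2.98 and 2.89 (1.07 ± 0.20, or 0.99 with centring on the median). Slc16a3 was thus lowest, and Emb and Bsg highest, in the denervated muscle. Slc16a1, another lactate carrier, was also lowest there but within 2-fold of plantaris, at -0.92, -0.06 and 0.55 (-0.86 ± 0.20). It was named after its value was seen. The glucose carriers Slc2a4 (-1.17 ± 0.20, or -0.73 under quantile normalization) and Slc2a12 (-1.32 ± 0.20, or -0.96 in the authors' values) were lower than in plantaris.

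Mitochondrial energy genes were also below plantaris, although the normal muscles differed little in them. In the respiratory chain and ATP synthase, 18 of 20 compared genes were lower by 2-fold or more (median -1.69), and of 19 tricarboxylic acid cycle genes 17 were (median -1.51). Under quantile normalization these counts were 10 and 13. Cycs, cytochrome c, stood at 4.47 in denervated soleus, 7.0 in plantaris and 6.55 in normal soleus (-2.53 ± 0.20, or -1.85 under quantile normalization). Atp5mc1, of the ATP synthase ring, stood at 5.67, 7.78 and 7.56 (-2.11 ± 0.20), and Cox5a, of cytochrome oxidase, at 4.91, 7.0 and 6.82 (-2.09 ± 0.20). In the cycle, Idh3a stood at -0.76, 1.98 and 0.00 (-2.74 ± 0.20) and Mdh2 at 2.26, 4.56 and 4.23 (-2.31 ± 0.20). The medians for plantaris over normal soleus were 0.08 and 0.14, and for denervated over normal soleus -1.59 and -1.41. Fatty acid oxidation differed less, with 14 of 24 genes at least 2-fold lower and none higher (median -1.06). Hadh stood at 3.06, 5.49 and 6.21 (-2.42 ± 0.20) and Fabp3, a fatty acid carrier, at 3.11, 4.85 and 6.65 (-1.74 ± 0.20). Across the alternatives 6 to 15 of this list were lower.

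Of 16 oxidative regulators 8 were at least 2-fold lower (median -0.91). Perm1, a muscle regulator of mitochondrial genes, stood at -5.03 in denervated soleus, 2.69 in plantaris and 2.92 in normal soleus (-7.72 ± 0.29, or 211-fold lower, from 1 spot). With normexp background its fold was -6.13. Vegfb, linked to fatty acid supply, stood at -2.90, 1.13 and 1.44 (-4.03 ± 0.21). The coactivator Ppargc1b stood at -2.44, -0.22 and -0.09 (-2.22 ± 0.21), while its relative Ppargc1a was within 2-fold at -2.70, -1.89 and -2.51 (-0.81 ± 0.21). Ppard gave -2.28 on 1 probe and -0.23 on another. Mb, myoglobin, was within 2-fold at 8.92, 9.07 and 9.10 (-0.15 ± 0.20), and its sign turned under quantile normalization (0.82) and in the authors' values (0.20).

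In phosphate transfer 5 of 10 genes were at least 2-fold lower and 2 higher (median -1.05). Ckmt2, the mitochondrial creatine kinase, stood at 4.61 in denervated soleus, 8.29 in plantaris and 8.44 in normal soleus (-3.68 ± 0.20, or -2.82 under quantile normalization). Slc25a4, the ADP and ATP exchanger, stood at 3.75, 6.80 and 4.81 (-3.05 ± 0.20), Ak1 at 5.25, 8.04 and 6.3 (-2.79 ± 0.20) and Ckm, the cytosolic kinase, at 6.92, 9.38 and 8.40 (-2.45 ± 0.20). Ampd3, an AMP deaminase, went the other way at 1.18, -1.15 and 1.67 (2.33 ± 0.20), close to normal soleus. Gatm gave 1.13 on 1 probe and -0.70 on another.

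Genes of protein breakdown showed few wide gaps. None of 26 proteasome subunits was 2-fold apart, with a median of -0.20 whose sign was positive after quantile normalization (0.09) and in the authors' values (0.15). The atrophy ligases Trim63 and Fbxo32 stood at -0.09 and -0.74 in denervated soleus against 1.25 and -0.44 in plantaris, folds of -1.34 ± 0.20 (-0.99 in the authors' values) and -0.30 ± 0.20 (0.05 in the authors' values). Of 14 genes on the ligase and FoxO list 3 were at least 2-fold higher and 3 lower (median -0.39), and with a mean over probes 4 and 2. These counts stand beside 12.0% and 16.8% of all genes. The higher ones were the stress gene Gadd45a, at 3.0, -1.21 and -0.16 (4.22 ± 0.20), together with Nedd4 (1.39 ± 0.20) and Fbxo30 (1.23 ± 0.21, or 0.95 with normexp background), both ligases. Cdkn1a gave -1.45 on its brighter probe and 5.45 on the other, so its place among the 3 lower rests on the choice of probe. In autophagy, 1 of 18 genes was higher and 2 were lower, both shares below the 12.0% and 16.8% of all genes. They were Lamp2 at 1.02, Bnip3 at -1.09 and Wipi1 at -1.01. Each was within 2-fold under at least 1 alternative, and the list median of -0.17 turned to 0.19 in the authors' values.

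Of 19 genes for growth factors and myostatin signalling 4 were at least 2-fold higher and 2 lower. Over all genes the shares were 12.0% and 16.8%. The list median was 0.46, but -0.02 with normexp background. Fst, follistatin, which binds myostatin and activins, stood at 2.17 in denervated soleus, -0.74 in plantaris and -0.69 in normal soleus (2.91 ± 0.20). Igfbp4 stood at 2.50, 0.54 and 1.18 (1.96 ± 0.20) and Igfbp5 at 0.84, -0.60 and -1.09 (1.44 ± 0.20). Mstn, myostatin, stood at -4.53 and -3.14, a fold of -1.39 ± 0.27 (-0.94 with normexp background), and was not well above background in normal soleus (-7.36).

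Among 16 activity-linked early genes 6 were at least 2-fold lower, against 16.8% of all genes, 1 was higher and 9 were within 2-fold (median -0.59). Nr4a1, an orphan receptor that responds to exercise, stood at -0.52 in denervated soleus, 3.87 in plantaris and 2.25 in normal soleus (-4.40 ± 0.20). Nr4a2 was at -2.60 ± 0.21, Atf3 at -2.01 ± 0.20 and Dusp1 at -1.89 ± 0.21, whereas Ier3 was at 1.80 ± 0.20. In the clock list 5 of 13 were lower and 1 higher (median -0.57). Its widest gaps rest on probes that disagree, with Per3 at -2.47, 0.47 and 1.51, and Bmal1 at -2.14 and -1.01. Per1 stood at -1.88 ± 0.27 (-1.24 with normexp background) and Per2 at 1.49 ± 0.21. No source used here gives the time of day at sampling.

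Heat shock genes were mostly within 2-fold, with 3 of 17 lower, near the 16.8% of all genes, and none higher (median -0.60). In the authors' values 3 were higher and 0 lower. The 3 lower as reported were Hspa9 (-1.26 ± 0.20) and the small heat shock proteins Hspb6 (-1.04 ± 0.20) and Hspb1 (-1.01 ± 0.20). Each was under 2-fold in at least 1 alternative. For Hspb6 the levels were 3.84 in denervated soleus, 4.89 in plantaris and 6.49 in normal soleus. In the polyamine list Smox, an oxidase of spermine (-1.73 ± 0.21), and Srm, spermidine synthase (-1.51 ± 0.20), were the 2 lower of 10, a share near the 16.8% of all genes. The list median of -0.16 turned to 0.12 under quantile normalization and 0.20 in the authors' values.

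Fat cell markers were the cell type list farthest above plantaris, with 6 of 8 at least 2-fold higher (median 2.58). Their summed level, in multiples of the 75th percentile, was 77.4 in denervated soleus, 14.2 in plantaris and 24.0 in normal soleus. It is a sum of signals in which the brightest probes weigh most. Lep, the hormone leptin, was above background on neither array. Adipoq, the hormone adiponectin, stood at 2.89 in denervated soleus, -0.52 in plantaris and -0.76 in normal soleus (3.41 ± 0.20). Retn, resistin, stood at 1.88, -1.02 and -0.80 (2.90 ± 0.20), and Cfd, adipsin, at 5.63, 2.97 and 3.23 (2.66 ± 0.20). Cidea, a lipid droplet protein, differed from these because it was as high in normal soleus, with 3.05, -0.31 and 3.01 (3.36 ± 0.20, and 3.29 on another probe). The part of fat tissue in other genes of the comparison was not tested.

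Some connective tissue genes were higher as well. Of 8 fibroblast and tendon markers 3 were at least 2-fold higher, against 12.0% of all genes, and none lower (median 0.89), with 2 to 6 higher across the alternatives. Their summed level was 160 in denervated soleus, 82.5 in plantaris and 59.7 in normal soleus. Comp stood at 3.13, 0.99 and 0.36 (2.14 ± 0.20) and Scx, a tendon factor, at 4.72, 2.95 and 3.79 (1.78 ± 0.20). Of 17 matrix genes 8 were higher and none lower (median 0.68), and 5 to 9 were higher across the alternatives. The other 9 were within 2-fold, among them the main collagen chains Col1a1 (-0.60) and Col1a2 (-0.26), named after their values were seen. The higher ones included Postn at 1.55 ± 0.20, Ccn2 at 1.48 ± 0.20 and the protease Mmp2 at 1.47 ± 0.20. Eln gave 1.32 on 1 probe and -1.66 on another. Macrophage markers were higher in 6 of 15 (median 0.86), with Ptprc at 1.5 and Mrc1 at 1.43. With normexp background these stood at 0.94 and 0.08, and across the alternatives 0 to 10 of the list were higher. Their summed level was 68.8 in denervated soleus, 42.7 in plantaris and 63.7 in normal soleus, so here plantaris was the low array.

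Blood cell markers had a median of 0.87 with 1 of 7 at least 2-fold higher, Ahsp at 1.84 ± 0.21, but 4 of 7 were under quantile normalization and 5 in the authors' values. Their summed levels were 351, 240 and 345 in the same order. Endothelial markers had a median of -0.11, or 0.25 in the authors' values, with Flt1 (-1.41 ± 0.24) and Kdr (-1.36 ± 0.20), both receptors for vascular growth factors, the 2 lower of 10, near the share of all genes. For smooth muscle and pericytes the median was -0.29, or 0.07 in the authors' values, with 3 of 12 lower. These were Lmod1 (at least -3.95 ± 0.43, or -2.26 with normexp background), Notch3 (-1.99 ± 0.21) and Des (-1.41 ± 0.20, or -0.72 under quantile normalization), of which Des also marks muscle fibres. Of 9 lymphocyte markers only 4 were above background on either array, and Cd3e and Cd8a were not, so that list says little. Cd8b was at -1.67 ± 0.23 and Cd3d at -1.29 ± 0.21, or -0.93 in the authors' values. The other 2 compared, Cd3g (0.75 ± 0.36) and Cd4 (0.13 ± 0.29), lay on the other side within 2-fold. They were named after their values were seen. Of 9 satellite cell markers 3 were higher and 1 lower (median 0.52), against 12.0% and 16.8% of all genes. Sdc4 was at 1.42 ± 0.20 and Vcam1 at 1.32 ± 0.21, whereas Cdh15, M-cadherin, was at -2.99 ± 0.20. The defining marker Pax7 was above background on neither array.

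Schwann cell and nerve markers lay on both sides. Of 13 compared, 4 were at least 2-fold higher and 4 lower (median 0.06, which turned to -0.22 with normexp background and -0.03 with centring on the median). Mag, Mbp and Prx, among the lower ones, are myelin genes, but so are Cnp and Pmp22, which were higher. Mag stood at -0.91 in denervated soleus, 1.67 in plantaris and 0.43 in normal soleus (-2.58 ± 0.20), and Mbp at -1.1, 1.44 and 1.01 (-2.54 ± 0.20), although a fainter Mbp probe gave 1.19. With a mean over probes Mag was at -1.56 and Mbp at -0.67. Prx was at -1.02 ± 0.38, or -0.80 with normexp background. On the high side Cnp stood at -0.36, -3.75 and -2.42 (3.38 ± 0.23, or 2.3 with normexp background). The other members on that side, named after their values were seen, were S100b (2.13 ± 0.21), Pmp22 (1.30 ± 0.20) and Ngfr, a neurotrophin receptor of Schwann cells without axons, with a bound of at least 1.99 ± 0.51. The summed level of the list was 11.7 in denervated soleus, 10.3 in plantaris and 8.89 in normal soleus.

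Several of the widest gaps lay outside the lists. On the high side, Tph1, the tryptophan hydroxylase of serotonin synthesis, stood at 2.65 in denervated soleus, -4.14 in plantaris and -4.19 in normal soleus (6.79 ± 0.24, and 5.44 on another probe). Lrrn1, a neuronal membrane protein, stood at 1.97, -4.78 and -3.60 (6.74 ± 0.29). Ctxn3 stood at 4.50, -1.08 and -1.49 (5.58 ± 0.20, from 1 spot), Adap2 at 0.17, -5.23 and -4.14 (5.4 ± 0.33) and Artn, the neurotrophic factor artemin, at 0.96, -4.27 and -3.02 (5.23 ± 0.25). Each stood far lower in both normal muscles than in denervated soleus. With normexp background Tph1 stood at 5.5, Lrrn1 at 5.06, Adap2 at 3.56 and Artn at 3.95. Bounds on this side were at least 5.96 ± 1.19 for Nefm, a neurofilament chain, at least 5.11 ± 0.56 for Tac4, a tachykinin, and at least 4.87 ± 1.30 for Nxnl2. They depend on the background handling, since normexp background gave 2.99, 2.5 and 1.87 for these genes.

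On the low side the widest was Ostn, which encodes the secreted peptide musclin, at 1.80 in plantaris, not well above background in denervated soleus (-7.46) and -4.23 in normal soleus. Its bound was at least -8.63 ± 1.18, or 396-fold lower, but with normexp background its fold was -5.78. Aqp4, the water channel of fast fibres, stood at -4.41, 2.50 and -1.01 (-6.91 ± 0.25, and -4.07 on another probe), and Lgi3 at -4.33, 1.29 and -2.86 (-5.62 ± 0.25). With normexp background these were at -5.49 and -4.46. Plantaris was the highest of the 3 arrays for each of these genes. Or10h1, named as an olfactory receptor, was at -5.31 ± 0.28 from 1 spot (-3.95 with normexp background), with normal soleus at -4.50 close to denervated soleus at -4.82. Wnt16 was at -5.66 ± 1.06 (-3.04 with normexp background), with an SD of 1.49 between the folds of its 2 spots. The bounds were at least -5.10 ± 1.28 for Iqcg, -4.91 ± 1.29 for Ifna5, whose other probe was above background on neither array, and -4.81 ± 0.61 for Virma from 1 spot. With normexp background these genes stood at -2.58, -2.47 and -2.16, so these bounds too hold only for the background handling used, and Ifna5 was at -2.07 with a mean over probes.

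Some genes often taken as stable differed as well. Of 13 reference genes 3 were at least 2-fold higher and 3 lower (median 0.30), against 12.0% and 16.8% of all genes. Across the alternatives 2 to 6 were higher and 2 to 3 lower. Tfrc, the transferrin receptor, stood at -0.91 in denervated soleus, 3.37 in plantaris and 2.67 in normal soleus (-4.28 ± 0.20, and -4.40 on another probe). Eef1a1, a translation factor, stood at 6.24, 4.06 and 5.13 (2.18 ± 0.20, or 2.8 under quantile normalization), and B2m at 5.29, 3.62 and 4.51 (1.67 ± 0.20). The others at least 2-fold apart were Gapdh, given above, Sdha and Ywhaz. Sdha, a subunit of succinate dehydrogenase, was at -1.36 ± 0.20, or -0.85 under quantile normalization. Ywhaz (1.07 ± 0.20) was named after its value was seen.

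**Figure D5:**
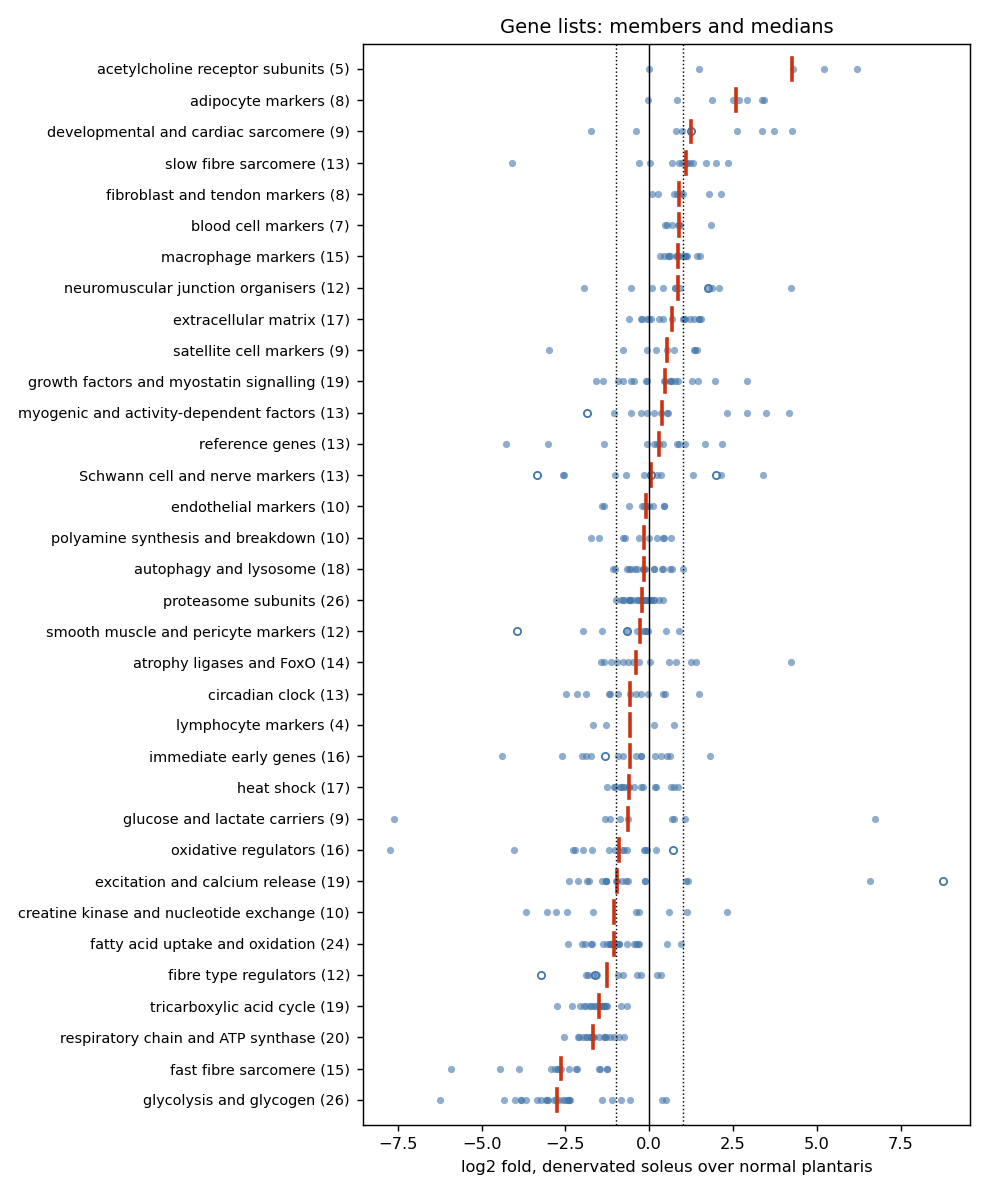
Log2 fold of each list member, denervated soleus over normal plantaris (horizontal axis), with lists ordered by their median (red bar) and the number compared in brackets. Filled points were measured on both arrays and open points are bounds, and dotted lines mark 2-fold. Receptor subunits and fat cell markers have the highest medians (4.27 and 2.58) and glycolysis and fast fibre genes the lowest (-2.74 and -2.64).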

How the data were processed

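The 3 1-colour (Cy3) Agilent arrays measured total RNA of rat muscle, and 2 of them enter the comparison. Per the file headers, Agilent Feature Extraction 10.10.1.1 made the processed signal, a linear intensity, background-subtracted and detrended, with no scaling between arrays. Flags of 0 or 1 and the spot type, other columns in these deposited files, mark control, outlier and well-above-background spots. The authors' deposited value table equalled this intensity times 1.41 for denervated soleus, 1.80 for plantaris and 1.60 for normal soleus, and no source used here says where these factors come from. No header or label gives the probes' gene symbols, so RefSeq accessions were matched to the GRCr8 gene table, naming 18005 of 30364 probes (15168 genes).

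Signals were taken as log2, centred on the 75th percentile of 58717 non-control spots, and averaged over a probe's spots without 467 to 569 outlier spots per array. None was saturated. A probe counted as well above background if 50% of its spots did, and the brightest probe stood for a gene. A bound is taken against the larger of the faint signal and the lowest level well above background on that array. For 58 genes no bound had the right sign, and they were left out. Repeat spots had a pooled SD of 0.39 log2 units on the denervated array, 0.35 on the plantaris array and 0.46 on the normal soleus array. The median error of a fold was 0.21. With 1 array per group no test was run. The steps were tested on simulated data. Named genes are the 8 widest folds each way, 4 widest bounds each way, up to 4 members per list past 2-fold, members past 2-fold against their list median, and 28 genes whatever their value. The lists and genes were chosen with earlier results of these data known. The arrays lack a mean spot signal, so normexp (limma 3.58.1, offset 50) ran on median spot and local background intensity from the deposited files. Promoters of Sln and Myod1 were not used here. Some results are not reported here.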

Additional observations from a re-analysis of the deposited data

Results flagged for a closer look

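Probes without a gene symbol were outside the comparison, yet 6849 of them were well above background on both arrays. Of these, 444 were higher and 1570 lower in denervated soleus by 2-fold or more. Among the 10096 named genes well above background on both arrays, 993 were higher and 1539 lower. The widest on the high side was probe A_64_P044801 at 9.19 log2 units (4.93 against -4.26 in plantaris, 2 spots). The widest on the low side was A_44_P201295 at -7.99 (-0.97 against 7.02, 2 spots). Both stand out as signal in data that the comparison by gene did not use, and their genes were not identified.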

How the results depend on the processing

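Counts of genes at least 2-fold apart stayed within 1.5 times the reported ones under 6 of 8 alternatives. With normexp background 504 genes were higher, and in the authors' values 2456 were higher and 1213 lower. The median of all genes was 0.01 as reported, 0.36 in the authors' values, -0.15 with normexp background and -0.15 with no filter on dim genes. Of genes higher or lower by 2-fold, 41.8% were higher as reported, 66.9% in the authors' values and 27.8% with normexp background. The median absolute difference between denervated soleus and plantaris ranged from 0.44 with normexp background to 0.65 in the authors' values. List medians that turned sign were growth factors (-0.0172) and Schwann cell (-0.22) with normexp background, Schwann cell (-0.0342) with centring on the median, proteasome (0.0869) and polyamine (0.12) under quantile normalization, lymphocyte (0.13) with no filter, and in the authors' values proteasome (0.15), autophagy (0.19), polyamine (0.20), endothelial (0.25) and smooth muscle (0.0678). With a mean over probes Cdkn1a turned to 2.0 and Eln to -0.17. Faint genes limit the comparison, since their folds shrink with normexp background. No replicate could be left out and no block for slide could be fitted with 1 array per group.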
